A study of Mus musculus with 6 samples.

Results

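The genes described here are the integrin and laminin chains of a mouse oral carcinoma line with and without the autophagy receptor p62. Members were taken by symbol: every listed gene named as an integrin alpha chain, an integrin beta chain numbered up to 8, or a laminin alpha, beta or gamma chain. This gave 37 of the 25526 genes listed, of which 18 are integrin alpha chains, 8 integrin beta chains, 5 laminin alpha chains, 3 laminin beta chains and 3 laminin gamma chains. MOC2 cells, from a squamous carcinoma of the mouse mouth, were profiled by bulk RNA-seq as 3 cultures with p62 knocked out by CRISPR-Cas9 and 3 parental cultures with wild-type p62. All 6 were kept in DMEM with fetal bovine serum and received no treatment. It is not stated if the knockout line is 1 clone or a pool, and the tests measure only how far these cultures spread.

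Integrins are cell surface receptors made of an alpha and a beta chain, and the pairing sets which matrix protein is bound. Laminins are secreted trimers of an alpha, a beta and a gamma chain that form the basement membrane under epithelia. Epithelial cells hold on to laminin through the alpha chains Itga3 and Itga6, and Itga6 pairs with Itgb1 or, in hemidesmosomes, with Itgb4. Squamous epithelium is known for a laminin that contains the Lama3 and Lamb3 chains and anchors hemidesmosomes.

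Libraries held between 32821860 and 41763980 exon reads. Sqstm1, which encodes p62, stood at 103, 496 and 105 TPM in knockout replicates 1 to 3 against 1432 to 1792 TPM in the parental libraries (TPM: reads per exon length, scaled to the same total in each library). Its log2 fold change (knockout over parental) was -2.71 ± 0.65 (SE; edgeR adjusted p = 0.048), and -3.93 without knockout replicate 2; without any other single library the adjusted p was 0.0959 to 0.178. Knockout replicate 2 stood apart from the other knockout libraries, with a chi-square statistic over genes of 313 and 316 per degree of freedom against them. It was 7.65 between knockout replicates 1 and 3, and 40.6 to 98.4 between parental libraries. Results are therefore given with knockout replicate 2 and, where it matters, without it. The adjusted p of a fit without it rests on knockout replicates 1 and 3, which lay closer together than any parental pair. The epithelial markers Epcam, Cdh1, Krt8, Krt18 and Krt19 were high in each library. Summed over 9 epithelial markers, the level was 5203 to 8087 TPM in knockout and 4916 to 5908 TPM in parental libraries. Of the 9, 7 were tested and 1 passed as higher with 6 libraries, Krt8, by 2.53-fold. In that fit 3.48% of all tested genes were higher. Without knockout replicate 2, 6 of the 7 were higher, where 23.0% of all tested genes were higher and 46.2% were called in either direction. The Krt8 call (edgeR adjusted p = 0.047) was lost in 8 of 14 alternatives (highest adjusted p = 0.189). The part of these markers in the integrin and laminin results was not tested. Of the basal squamous markers, Krt5 and Trp63 were nearly absent, with at most 1 and 21 reads in a library, while Krt14 stood at 12.6 to 54.3 TPM in knockout and 20.02 to 25.8 TPM in parental libraries, and Krt17 at 104 to 197 TPM in knockout and 107 to 147 TPM in parental libraries.

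The integrin and laminin chains as a group took up a smaller share of the exon reads in knockout replicates 1 and 3. The share was 0.479% (Wilson 95% interval 0.476 to 0.481), 0.674% (0.671 to 0.676) and 0.469% (0.467 to 0.471) in knockout replicates 1 to 3, against 0.757% (0.754 to 0.759), 0.769% (0.766 to 0.772) and 0.710% (0.707 to 0.713) in parental replicates 1 to 3. These intervals cover counting error only. All 3 knockout libraries were below all 3 parental libraries, with knockout replicate 2 closest to them. In bulk RNA, fewer cells that express a gene and less RNA per cell cannot be told apart.

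Of the 37 members, 27 passed the filter on low counts and were tested by edgeR's quasi-likelihood test over the whole table. In p62 knockout cells 0 of the 27 were higher, 5 were lower and 22 did not pass at an adjusted p below 0.05, against 3.48% higher, 5.6% lower and 9.08% called in either direction among all 12775 tested genes. At an unadjusted p below 0.05, 2 members were higher and 9 lower, where 4147 of the 12775 tested genes were below it in either direction. The 5 were the integrin alpha chains Itga2, Itga2b, Itga5 and Itga6 and the laminin gamma chain Lamc1. No integrin beta chain, laminin alpha chain or laminin beta chain passed by edgeR with all 6 libraries. The median log2 fold change (knockout over parental) of the 27 was -0.41, beside 0.02 for all tested genes, and 22 of the 27 had a negative sign, beside 48.3% of all tested genes. DESeq2 called 1 member higher and 8 lower, where 11.6% and 11.0% of all genes were called, 22.6% in either direction. Without knockout replicate 2, 2 members were higher and 13 lower, where 23.0% and 23.2% of all genes were called, 46.2% in either direction. The fold changes of 26 of them are drawn in the plot of fold changes by class.

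**Figure D1:**
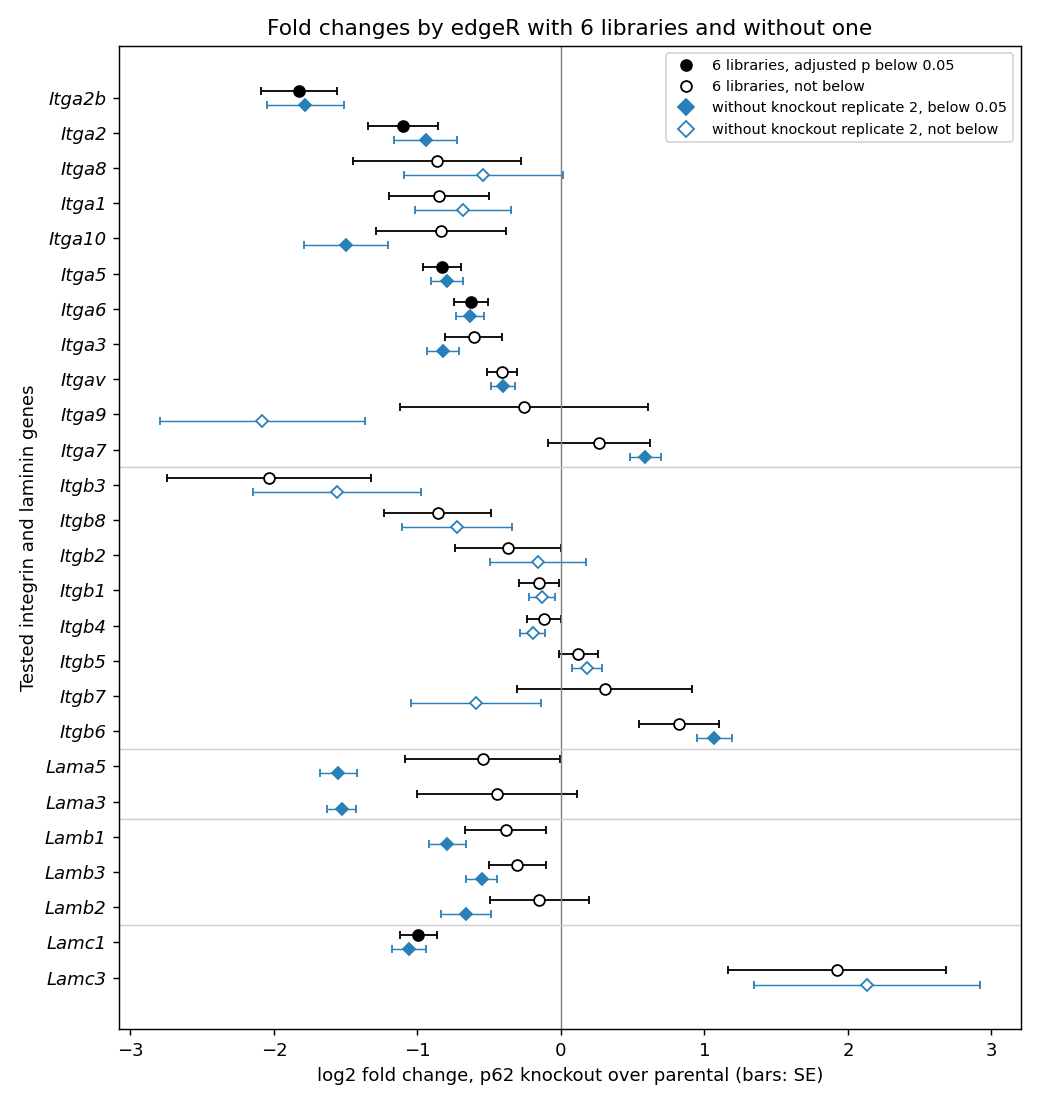
Log2 fold change (p62 knockout over parental, x axis, bars: SE) of 26 tested integrin and laminin genes, with all 6 libraries (black) and without knockout replicate 2 (blue), and filled symbols for an adjusted p below 0.05 by edgeR. Itga2b, Itga2, Itga5, Itga6 and Lamc1 are filled in both fits, while Lama5 and Lama3 lie at -0.55 and -0.45 with 6 libraries and at -1.55 and -1.53 without knockout replicate 2.

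Of the 11 tested integrin alpha chains, 4 were lower in p62 knockout cells: the fibronectin, collagen and laminin receptors Itga5, Itga2 and Itga6 by 1.78-, 2.14- and 1.54-fold, and the scarce Itga2b by 3.54-fold. The other 7 did not pass. Itga5, which pairs with Itgb1 as the main fibronectin receptor, stood at 18.6, 16.5 and 18.9 TPM in knockout replicates 1 to 3, against 31.8, 35.0 and 33.9 TPM in parental replicates 1 to 3. The groups did not overlap, and each knockout library lay between 49.1% and 56.3% of the parental mean. Its level fell 1.78-fold (log2 fold change -0.83 ± 0.13, SE; adjusted p = 0.021). Itga2, the collagen-binding chain of epithelial cells and platelets, stood at 48.4, 29.5 and 43.1 TPM in knockout libraries against 68.3, 96.3 and 106 TPM in parental libraries. All 3 knockout values were under the lowest parental value, with knockout replicate 2 the lowest. Its level fell 2.14-fold (log2 fold change -1.10 ± 0.24, SE; adjusted p = 0.040).

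Itga6, the laminin-binding chain shared by hemidesmosomes and focal contacts, stood at 149.9, 135 and 131 TPM in knockout libraries against 216, 247 and 211 TPM in parental libraries. The groups did not overlap and the 3 knockout libraries lay close to each other. The fall was 1.54-fold (log2 fold change -0.63 ± 0.12, SE; adjusted p = 0.032). Itga2b, the alpha chain of the platelet fibrinogen receptor, was low throughout, at 0.995, 0.865 and 1.00 TPM in knockout libraries against 3.70, 4.49 and 2.56 TPM in parental libraries. It had the lowest log2 fold change of the 5 called members, -1.83 ± 0.27 (SE; adjusted p = 0.017), or 3.54-fold lower. Its partner Itgb3 held at most 0.276 TPM in knockout and 0.724 TPM in parental libraries, and did not pass (log2 fold change -2.04 ± 0.71, SE; edgeR adjusted p = 0.102; DESeq2 adjusted p = 0.0417). The 4 platelet markers were mixed: Pf4 and Gp9 had at most 2 reads in a library, while Ppbp, a chemokine gene, stood at 49.5 to 157 TPM in knockout and 82.6 to 159.6 TPM in parental libraries. Gp1ba, a platelet adhesion receptor, was at 0.447, 1.46 and 0.363 TPM in knockout against 1.62, 1.36 and 1.00 TPM in parental libraries (edgeR adjusted p = 0.406), and 3.15-fold lower without knockout replicate 2 (edgeR adjusted p = 0.00932). The part of these markers in the Itga2b result was not tested.

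The calls of these alpha chains rested on several libraries, although the direction was the same in each fit. The adjusted p of Itga5 was 0.137, 0.0783, 0.116 and 0.0964 without parental replicate 2, parental replicate 3, knockout replicate 1 and knockout replicate 3, and that of Itga2 was 0.171, 0.113, 0.121 and 0.136 without the same libraries. For Itga6 these were 0.176, 0.0980, 0.141 and 0.157, with 0.0632 without parental replicate 1, and for Itga2b 0.115, 0.0899 and 0.0864 without parental replicate 2, knockout replicate 1 and knockout replicate 3. Without knockout replicate 2 all 4 passed, with log2 fold changes of -0.79, -0.94, -0.63 and -1.78 for Itga5, Itga2, Itga6 and Itga2b.

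Itga3, a laminin receptor of epithelial cells and the alpha chain with the highest mean TPM in both groups, was at 429, 594 and 413 TPM in knockout libraries against 729, 793 and 780.3 TPM in parental libraries. The groups did not overlap, but knockout replicate 2 was nearer the parental level, at 77.4% of its mean, where knockout replicates 1 and 3 were at 55.9% and 53.8%. The edgeR test did not pass (log2 fold change -0.61 ± 0.20, SE; adjusted p = 0.0872). It passed with DESeq2 (adjusted p = 0.0297) and by edgeR without knockout replicate 2 (log2 fold change -0.82; adjusted p = 0.00241). Itgav, which pairs with several beta chains to bind vitronectin, fibronectin and latent TGF-beta, was at 58.0, 52.4 and 53.7 TPM in knockout against 77.9, 75.7 and 75.1 TPM in parental libraries. It was just over the threshold (log2 fold change -0.41 ± 0.11, SE; adjusted p = 0.0569), and under it with upper quartile scaling, the stricter filter, DESeq2 and without knockout replicate 2 (adjusted p = 0.0448, 0.0494, 0.00788 and 0.011).

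Itga7, a laminin receptor known mainly from muscle, differed in direction between the knockout libraries. It was at 21.0, 7.89 and 22.2 TPM in knockout replicates 1 to 3, against a narrow 14.6 to 15.0 TPM in parental libraries. Knockout replicates 1 and 3 lay above the parental range and knockout replicate 2 below it, and the fold change did not pass (log2 0.26 ± 0.36, SE; edgeR adjusted p = 0.631). Without knockout replicate 2 it was higher by 0.59 on the log2 scale (edgeR adjusted p = 0.00656).

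Summed over the 18 alpha chains, the level was 728, 839 and 685 TPM in knockout libraries and 1146, 1272 and 1226 TPM in parental libraries, or 751 ± 79.6 against 1215 ± 63.6 TPM (SD, n = 3 each). Itga3 made up 63.4% ± 6.48 of this sum in knockout and 63.2% ± 0.742 in parental cells, and Itga6 made up 18.6% ± 2.32 and 18.5% ± 1.17. The sum thus differed while the mean shares of these chains differed by less than the spread between libraries. The equal means hide a split. The Itga3 share was 58.9%, 70.8% and 60.3% in knockout replicates 1 to 3, against 62.3% to 63.6% in parental libraries. The Itga6 share was 20.6%, 16.1% and 19.1% in knockout replicates 1 to 3, against 17.2% to 19.4% in parental libraries. An exact permutation test of 3 against 3 libraries cannot go below p = 0.1, so sums and ratios are given without a test.

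**Figure D2:**
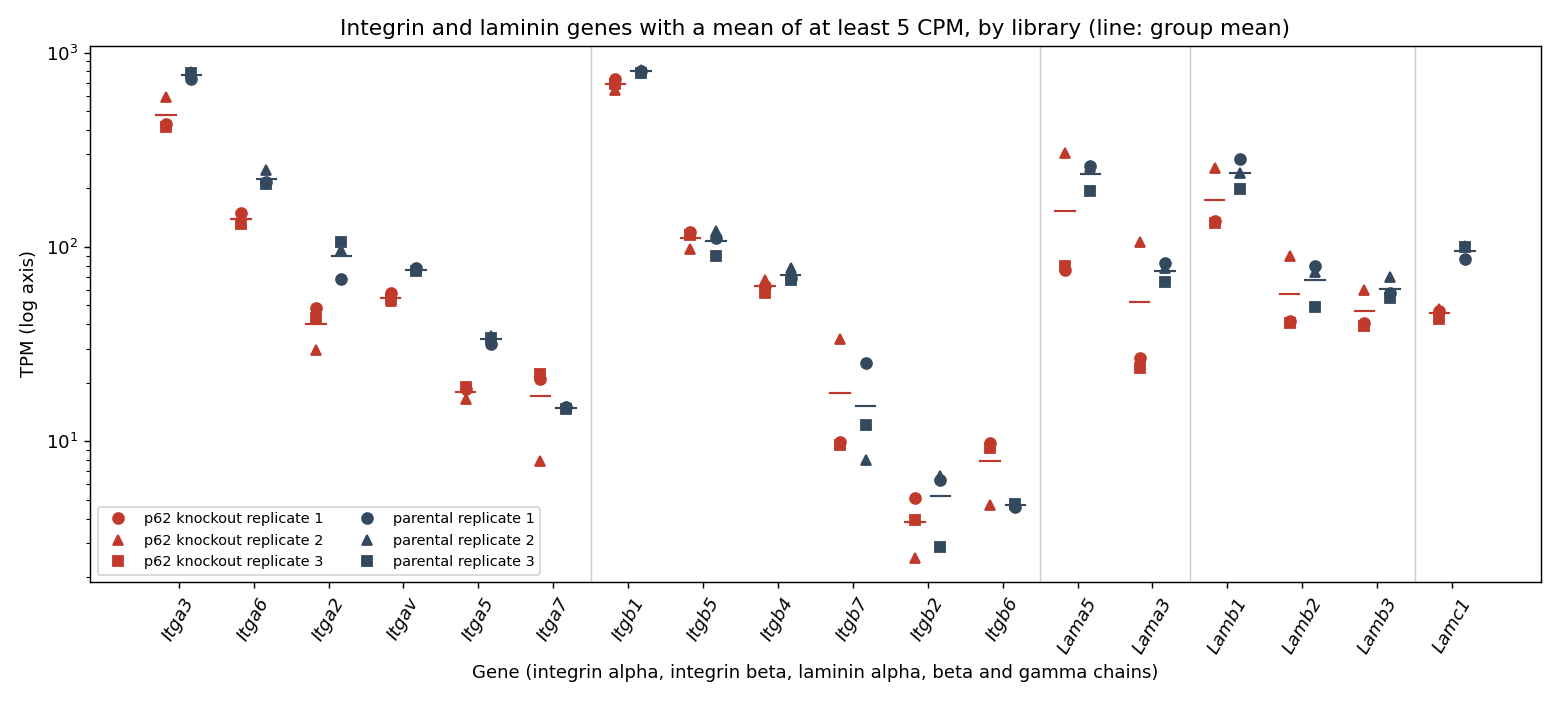
TPM (log axis) of 18 members with a mean of at least 5 CPM, by library, with p62 knockout libraries (red) left of parental libraries (dark) and a line at each group mean. The knockout and parental symbols of Itga3, Itga6, Itga2, Itgav, Itga5, Itgb1, Itgb4 and Lamc1 do not overlap, while knockout replicate 2 (red triangle) lies above the parental symbols for Lama5, Lama3 and Lamb2.

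The 250 bases before the annotated start are shown for the called alpha chains that the RefSeq promoter table holds, Itga2, Itga2b and Itga5, and for Lama5, a laminin chain whose level differed widely between knockout libraries. The table held entries for 23 of the 37 members, on build GRCm38.p6. The stretches are chr13:114932101-114932350 for Itga2, chr11:102469884-102470133 for Itga2b, chr15:103366792-103367041 for Itga5 and chr2:180225860-180226109 for Lama5, all on the minus strand and written 5′ to 3′. Capitals mark matches on either strand to the SP1 motif GGGCGG, searched together with the AP-1 motif TGANTCA and the TEAD motif CATTCC.
Itga2: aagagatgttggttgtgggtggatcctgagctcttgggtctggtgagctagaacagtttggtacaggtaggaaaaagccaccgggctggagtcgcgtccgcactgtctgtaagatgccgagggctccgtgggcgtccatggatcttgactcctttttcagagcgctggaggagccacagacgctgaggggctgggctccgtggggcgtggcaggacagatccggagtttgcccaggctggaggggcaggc
Itga2b: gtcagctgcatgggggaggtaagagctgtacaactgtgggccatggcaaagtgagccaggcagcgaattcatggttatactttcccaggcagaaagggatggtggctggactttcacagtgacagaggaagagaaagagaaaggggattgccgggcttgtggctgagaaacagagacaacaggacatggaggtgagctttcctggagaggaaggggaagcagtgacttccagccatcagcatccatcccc
Itga5: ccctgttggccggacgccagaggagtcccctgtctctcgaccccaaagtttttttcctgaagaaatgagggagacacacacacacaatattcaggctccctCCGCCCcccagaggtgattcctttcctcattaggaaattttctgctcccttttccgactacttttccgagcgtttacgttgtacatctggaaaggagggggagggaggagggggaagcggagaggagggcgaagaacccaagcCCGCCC
Lama5: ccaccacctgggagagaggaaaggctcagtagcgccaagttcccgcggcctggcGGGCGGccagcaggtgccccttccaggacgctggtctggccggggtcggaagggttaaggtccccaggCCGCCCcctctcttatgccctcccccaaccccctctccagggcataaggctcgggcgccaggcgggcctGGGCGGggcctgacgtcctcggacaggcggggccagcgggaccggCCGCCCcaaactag
The SP1 motif had 0 matches in Itga2 and Itga2b, 2 in Itga5 and 4 in Lama5, and the AP-1 and TEAD motifs had 0 in all 4. Of all 32851 promoters in the table, 32.7% held the SP1 motif, 6.75% the AP-1 motif and 12.6% the TEAD motif in the same window, and of 26 promoters of members 9, 1 and 3 did. A match is a description of the letters only.

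Of the 8 tested integrin beta chains, 0 passed by edgeR with 6 libraries, and their log2 fold changes lay between -2.04 for the scarce Itgb3 and 0.82 for Itgb6. Itgb1, the common partner of most alpha chains listed here, had the highest mean TPM of all members, at 727, 645 and 690.3 TPM in knockout against 807, 811 and 789 TPM in parental libraries. The groups did not overlap, but the difference was about the size of its SE and did not pass (log2 fold change -0.15 ± 0.14, SE; adjusted p = 0.464). Itgb4, the hemidesmosomal partner of Itga6, was at 62.9, 67.3 and 58.1 TPM in knockout against 69.2, 78.3 and 67.5 TPM in parental libraries, with a log2 fold change of -0.12 ± 0.12 (SE; adjusted p = 0.511). The highest knockout value lay just under the lowest parental value. Itgb5, a partner of Itgav in vitronectin binding, averaged 111 ± 11.7 TPM in knockout and 108 ± 15.9 TPM in parental cells (SD, n = 3 each), and the groups overlapped (edgeR adjusted p = 0.556).

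Itgb6, the epithelial partner of Itgav that activates latent TGF-beta, followed the split among the knockout libraries. It stood at 9.75, 4.68 and 9.26 TPM in knockout replicates 1 to 3 against 4.56, 4.72 and 4.74 TPM in parental libraries. Knockout replicates 1 and 3 were at 209% and 198% of the parental mean, and knockout replicate 2 was within the parental range. The edgeR test did not pass (log2 fold change 0.82 ± 0.28, SE; adjusted p = 0.0967), while DESeq2 did (adjusted p = 0.0322), as did edgeR without knockout replicate 2 (2.10-fold higher; adjusted p = 0.00163).

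The beta chains known from leukocytes were present at low levels. Itgb7 was uneven in both groups, at 9.94, 33.6 and 9.52 TPM in knockout and 25.3, 8.05 and 12.1 TPM in parental libraries. Its sign depended on a single library, with a log2 fold change of 0.30 ± 0.61 (SE; adjusted p = 0.755) with 6 libraries and -0.59 without knockout replicate 2. Itgb2 averaged 3.85 ± 1.29 TPM in knockout and 5.25 ± 2.08 TPM in parental cells (SD, n = 3 each). Their leukocyte partners Itgal, Itgam, Itgax, Itgad and Itgae did not pass the filter, and Ptprc, Cd3e and Tyrobp had at most 8 reads in a library. Of 10 leukocyte markers 7 had at most 3 reads in each library and 2 were tested. Of these 2, 1 was lower in knockout, where 5.6% of all tested genes were lower. This was Cd68, a lysosomal membrane protein, which fell 5.67-fold (edgeR adjusted p = 0.00654, and 0.0537 without parental replicate 2). Summed over the 10 the level was 7.13 to 9.12 TPM in knockout and 39.3 to 43.2 TPM in parental libraries. Most of this sum was Cd68, at 38.1 to 42.4 TPM in parental libraries. Csf1r, the other tested marker, was at 1.71, 0.468 and 1.71 TPM in knockout against 1.08, 1.25 and 0.619 TPM in parental libraries. It did not pass (log2 fold change 0.47, edgeR adjusted p = 0.549), also not without knockout replicate 2 (0.86, edgeR adjusted p = 0.0506). The part of these markers in the integrin results was not tested.

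The laminin alpha chains differed more between knockout replicate 2 and the other knockout libraries than between the genotypes. Lama5, the broadly expressed epithelial alpha chain, stood at 76.1, 303 and 80.0 TPM in knockout replicates 1 to 3, against 261, 257 and 194 TPM in parental replicates 1 to 3. Lama3, the alpha chain of the hemidesmosomal laminin, stood at 26.9, 106 and 23.8 TPM in knockout against 83.0, 77.5 and 66.2 TPM in parental libraries. For both, knockout replicates 1 and 3 were far below the parental range and knockout replicate 2 was above it.

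With 6 libraries neither laminin alpha chain passed (log2 fold change -0.55 ± 0.54, SE, and adjusted p = 0.508 for Lama5, and -0.45 ± 0.56, SE, and adjusted p = 0.602 for Lama3, by edgeR). Without knockout replicate 2, Lama5 was 2.93-fold lower (log2 fold change -1.55 ± 0.13, SE; adjusted p = 0.00084) and Lama3 2.88-fold lower (log2 fold change -1.53 ± 0.10, SE; adjusted p = 0.000603). The ratio of Lama5 to Lama3 TPM differed little, at 2.83, 2.86 and 3.36 in knockout and 3.15, 3.32 and 2.93 in parental libraries. Their summed level with the other 3 alpha chains was 103, 409 and 104 TPM in knockout and 344, 335 and 260.03 TPM in parental libraries.

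The laminin beta chains showed the same split at a smaller size. Lamb1, the beta chain of most basement membrane laminins, was at 135, 255 and 133 TPM in knockout against 283, 241 and 199 TPM in parental libraries. Lamb2, its counterpart in kidney, muscle and nerve basement membranes, was at 41.6, 90.3 and 40.5 TPM in knockout against 80.1, 73.9 and 49.1 TPM in parental libraries. Lamb3, the beta chain of the hemidesmosomal laminin, was at 40.7, 59.7 and 39.1 TPM in knockout against 57.6, 69.8 and 54.5 TPM in parental libraries. In all 3 genes knockout replicates 1 and 3 lay below the parental range, while knockout replicate 2 was within it for Lamb1 and Lamb3 and above it for Lamb2.

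With 6 libraries 0 of the 3 beta chains passed by edgeR, at adjusted p = 0.376 for Lamb1, 0.787 for Lamb2 and 0.316 for Lamb3, and 0 had an adjusted p below 0.05 by DESeq2. Without knockout replicate 2 all 3 were lower, Lamb1 by 1.73-fold (edgeR adjusted p = 0.00473), Lamb2 by 1.58-fold (edgeR adjusted p = 0.0229) and Lamb3 by 1.47-fold (edgeR adjusted p = 0.00875).

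For Lamc1, unlike the laminin alpha and beta chains above, knockout replicate 2 lay with the other knockout libraries. Lamc1, the gamma chain of most laminins, stood at 46.8, 48.0 and 42.4 TPM in knockout replicates 1 to 3 against 86.6, 101 and 99.5 TPM in parental replicates 1 to 3. The 3 knockout libraries were between 44.4% and 50.3% of the parental mean. The fall was 1.99-fold (log2 fold change -0.99 ± 0.13, SE; adjusted p = 0.013). Its adjusted p was 0.109, 0.0622, 0.0887 and 0.0801 without parental replicate 2, parental replicate 3, knockout replicate 1 and knockout replicate 3, and 0.0016 without knockout replicate 2.

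Itga1, another collagen-binding chain and the neighbour of Itga2 among the protein-coding genes of chromosome 13 in RefSeq, held at most 0.346 TPM in knockout and 0.670 TPM in parental libraries and did not pass (edgeR adjusted p = 0.142). Lamc3 held at most 0.293 TPM in any library and did not pass (edgeR adjusted p = 0.134).

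**Figure D3:**
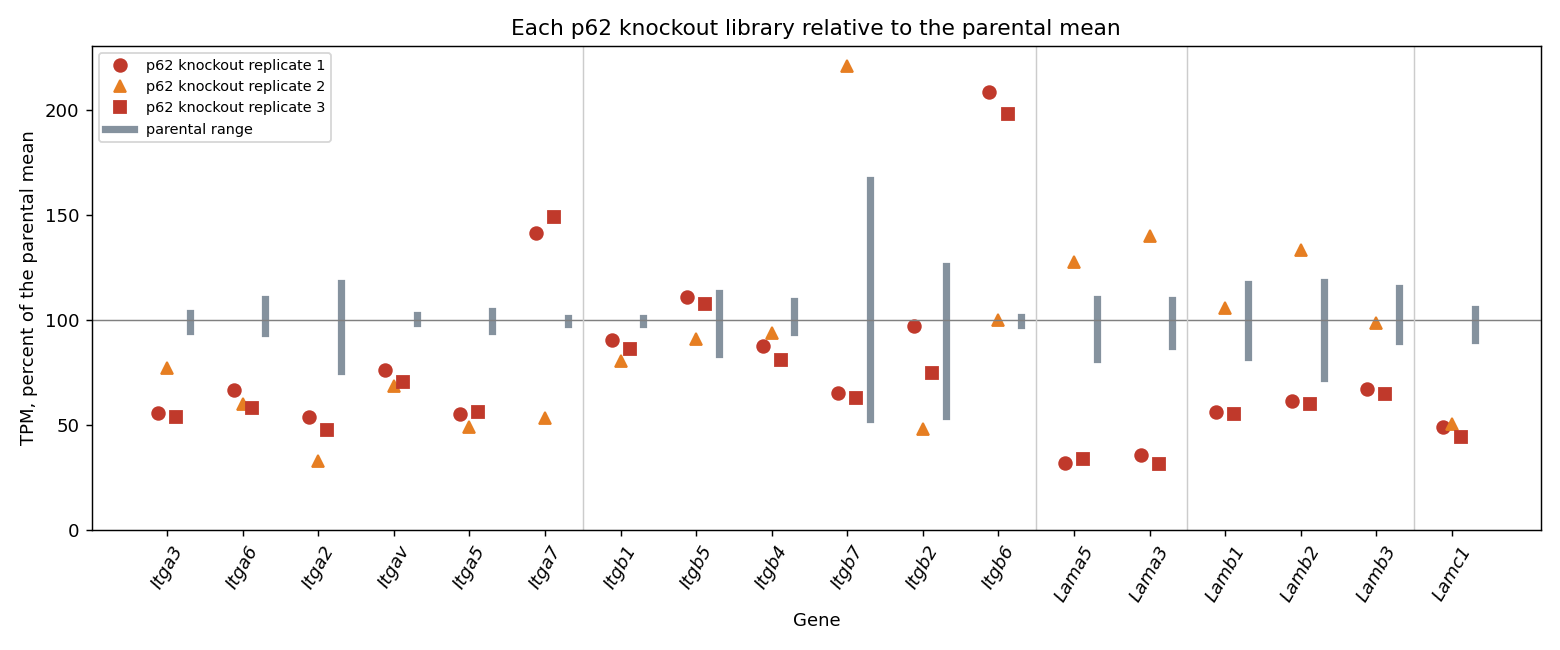
TPM of each p62 knockout library as a percent of the parental mean (y axis) for 18 members with a mean of at least 5 CPM, with the parental range as a bar beside them. Knockout replicate 2 (triangle) lies with the other knockout libraries for Lamc1 and Itga5, at 50.3% and 49.1%, and apart from them for Lama5 and Lama3, at 128% and 140% against 31.5% to 35.5%.

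Over the 27 tested members, the libraries of the groups did not overlap for 13, with knockout lower for 12 (44.4%) and higher for 1, Lamc3. Among all tested genes 22.3% did not overlap with knockout lower and 12.2% with knockout higher. Knockout replicates 1 and 3 were both below the parental range for 19 of the 27, where 36.1% of all tested genes were. Of these 19, knockout replicate 2 was within or above the parental range for 7, namely Lama3, Lama5, Lamb1, Lamb2, Lamb3, Itga9 and Itga10. Among all tested genes this held for 1755 of the 4609 with knockout replicates 1 and 3 below that range, a similar proportion. Taken over all tested genes the pattern made up 13.7%, and over the 27 tested members 25.9%. All 5 laminin alpha and beta chains with a mean of at least 5 CPM were among these 7. Itga9 and Itga10 were low, at no more than 0.205 and 3.84 TPM in any library, and 79.4% of the Itga10 reads were uniquely placed, where the other tested members had over 95%.

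Ratios were formed for 8 pairs of chains that are known to occur in 1 receptor or trimer, and the groups did not overlap in 4 of them. No ratios of other gene pairs were formed, so this count has no background share. The alpha chains of these 4 pairs, Itga2, Itga6 and Itgav, already did not overlap in TPM. Itga5 with Itgb1 was not among the pairs. The ratio of Itga6 to Itgb4 TPM was 2.38, 2.00 and 2.26 in knockout and 3.13, 3.16 and 3.12 in parental libraries. The ratio of Itgav to Itgb5 was 0.485, 0.537 and 0.463 in knockout and 0.702, 0.624 and 0.832 in parental libraries. In both pairs, and in Itga2 to Itgb1 and Itga6 to Itgb1, the 3 knockout ratios lay below all 3 parental ratios. The groups overlapped in the other 4 pairs. The ratio of Itga3 to Itgb1 was 0.590, 0.921 and 0.599 in knockout and 0.904, 0.979 and 0.989 in parental libraries. The ratio of Lama3 to Lamb3 was 0.659, 1.77 and 0.608 in knockout and 1.44, 1.11 and 1.21 in parental libraries. Of Lama5 to Lamc1 it was 1.63, 6.31 and 1.89 in knockout and 3.02, 2.56 and 1.95 in parental libraries, and of Lamb1 to Lamc1 it was 2.89, 5.30 and 3.15 in knockout and 3.27, 2.40 and 2.00 in parental libraries. In these 4 pairs knockout replicate 2 had the highest ratio of the knockout libraries.

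**Figure D4:**
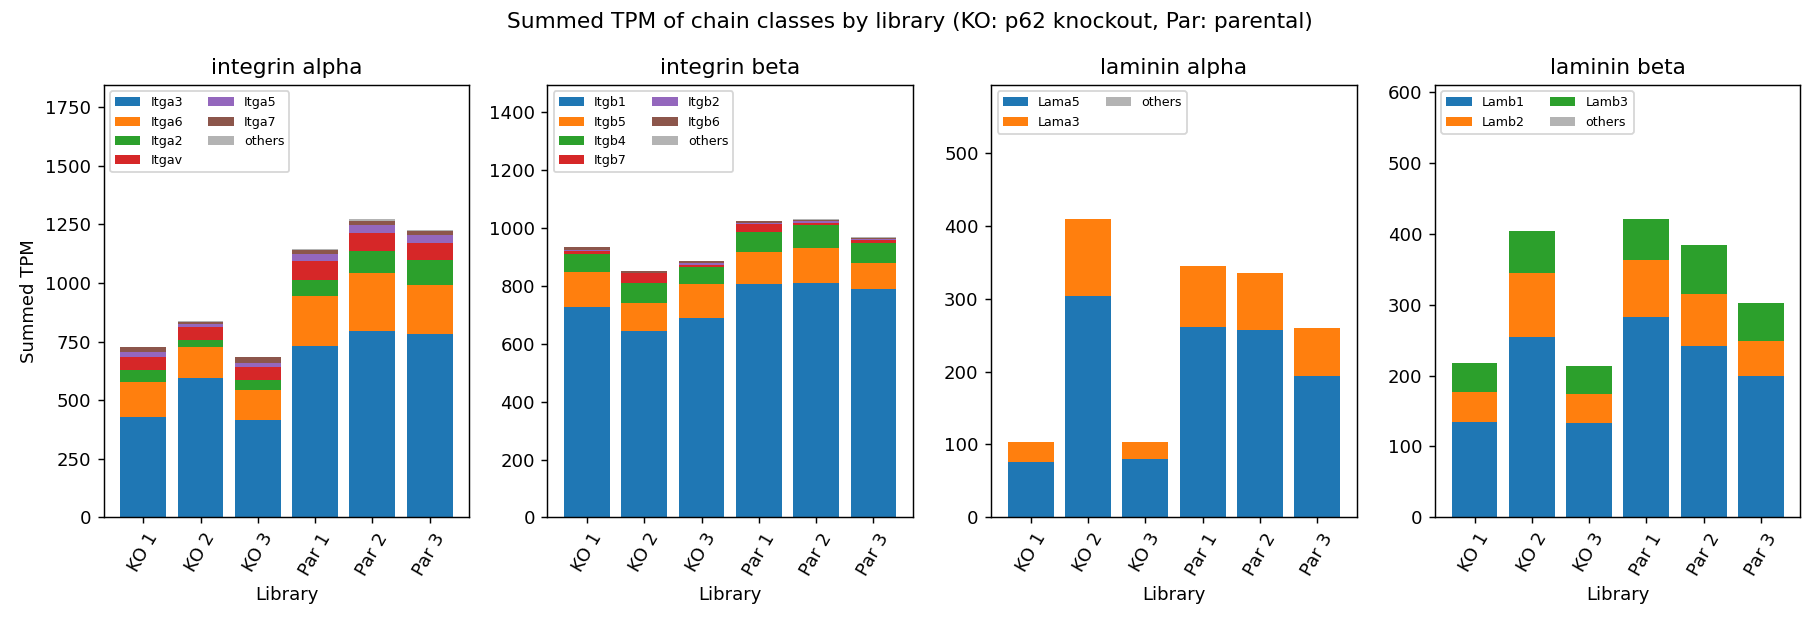
Summed TPM (y axis) of the integrin alpha, integrin beta, laminin alpha and laminin beta chains by library, split by gene, with p62 knockout libraries 1 to 3 left of parental libraries 1 to 3. The integrin alpha sum lies between 685 and 839 TPM in knockout and between 1146 and 1272 TPM in parental libraries, and the laminin alpha sum is 103, 409 and 104 TPM in the knockout libraries.

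The remaining members were at or near the limit of detection. Itgad, a leukocyte alpha chain, had 0 reads in all 6 libraries, which allows up to 3 reads, or 0.0914 CPM in the shallowest library. Itga4, Itgam, Itgax and Lama4 had at most 3 reads in any library, and Itgal, Itga11, Itgae, Lama1 and Lama2 at most 18. Of the tested members under 5 CPM, Itga8 and Itgb8 held at most 0.514 and 0.780 TPM in a library and did not pass by edgeR (adjusted p = 0.336 and 0.161).

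Genes that work with integrins and laminins were examined by list. Of 15 tested integrin ligands other than laminins, 3 were lower, 0 higher and 12 did not pass, with a median log2 fold change of -0.35. Among all tested genes 5.6% were lower and 3.48% higher in this fit. Spp1, osteopontin, a ligand of Itgav integrins, was at 1061, 921 and 1011 TPM in knockout against 4303, 4755 and 4285 TPM in parental libraries. It fell 4.24-fold, and the 3 knockout libraries stood at 23.9%, 20.7% and 22.7% of the parental mean (log2 fold change -2.09 ± 0.16, SE; adjusted p = 0.00654, and 0.0537 without parental replicate 2). Fn1, fibronectin, the ligand of Itga5, was at 312, 629 and 310.3 TPM in knockout against 1406, 1337 and 1413 TPM in parental libraries. It fell 3.15-fold, with knockout replicate 2 nearest the parental level (log2 fold change -1.66 ± 0.33, SE; adjusted p = 0.032). That call was lost on leaving out any library except knockout replicate 2 (edgeR adjusted p = 0.0766 to 0.155). Adam9, a membrane metalloprotease that binds integrins, fell 1.61-fold (edgeR adjusted p = 0.033), a call lost with the replicate block and on leaving out any library except knockout replicate 2 (highest adjusted p = 0.181). On leaving out knockout replicate 2, 3 of 15 ligands were higher and 6 lower, where 46.2% of all genes were called.

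Of 29 tested cytoplasmic adaptors and kinases of integrin adhesions, 2 were higher, 2 lower and 25 did not pass, with a median log2 fold change of 0.14. Beside them, 3.48% of all tested genes were higher and 5.6% lower. In the fit without knockout replicate 2, 8 were higher and 6 lower, where 46.2% of all genes were called. Parva and Parvb, the alpha and beta parvins that bind integrin-linked kinase, moved in opposite directions. Parva was at 45.4, 34.7 and 40.2 TPM in knockout against 27.0, 26.8 and 19.7 TPM in parental libraries, a 1.72-fold rise (edgeR adjusted p = 0.031). Parvb was at 59.6, 73.4 and 52.5 TPM in knockout against 108, 114 and 117 TPM in parental libraries, a 1.74-fold fall (edgeR adjusted p = 0.033). Actn1, the actin crosslinker alpha-actinin, rose 1.68-fold (log2 fold change 0.75 ± 0.12, SE; adjusted p = 0.021). Tns4, a tensin that binds beta chain tails, fell 2.61-fold, with 177, 208 and 157 TPM in knockout against 478, 547 and 468 TPM in parental libraries (log2 fold change -1.39 ± 0.16, SE; adjusted p = 0.00934).

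The calls of Parva, Parvb and Actn1 were lost in each fit without a library other than knockout replicate 2. Over the 5 fits the adjusted p was 0.0596 to 0.151 for Parva, 0.0733 to 0.168 for Parvb and 0.0597 to 0.152 for Actn1. That of Tns4 was 0.0807, 0.0507, 0.0651 and 0.0625 without parental replicate 2, parental replicate 3, knockout replicate 1 and knockout replicate 3.

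Of 14 tested hemidesmosome and basement membrane partners, 1 was lower, 0 higher and 13 did not pass, with a median log2 fold change of -0.17. The shares over all tested genes were 5.6% lower and 3.48% higher. With knockout replicate 2 left out, 2 of 15 were higher and 5 lower, where 46.2% of all genes were called. The called gene was Hspg2, perlecan, a heparan sulfate proteoglycan of the basement membrane, at 6.29, 6.88 and 6.24 TPM in knockout against 15.1, 14.4 and 12.7 TPM in parental libraries. It fell 2.06-fold (log2 fold change -1.05 ± 0.13, SE; adjusted p = 0.00969), and its adjusted p was 0.0891, 0.0756 and 0.0635 without parental replicate 2, knockout replicate 1 and knockout replicate 3. Beside these matrix genes, 2 of 3 tested fibroblast markers were lower in knockout, where 5.6% of all tested genes were lower. They were Pdgfra, by 3.30-fold, and Col3a1, by 5.19-fold. The Pdgfra call was lost in 3 of 14 alternatives (adjusted p up to 0.0766) and the Col3a1 call in 6 of 13 (adjusted p up to 0.150). The level was 1.68 to 1.96 TPM in knockout and 5.72 to 8.77 TPM in parental libraries summed over 6 markers. Of those 6, Lum had 0 reads in all libraries, and of 6 endothelial markers 1 was tested and 0 passed (Kdr, edgeR adjusted p = 0.126), with sums of 0.315 to 0.372 TPM in knockout and 0.367 to 0.762 TPM in parental libraries. The part of these markers in the results was not tested.

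**Figure D5:**
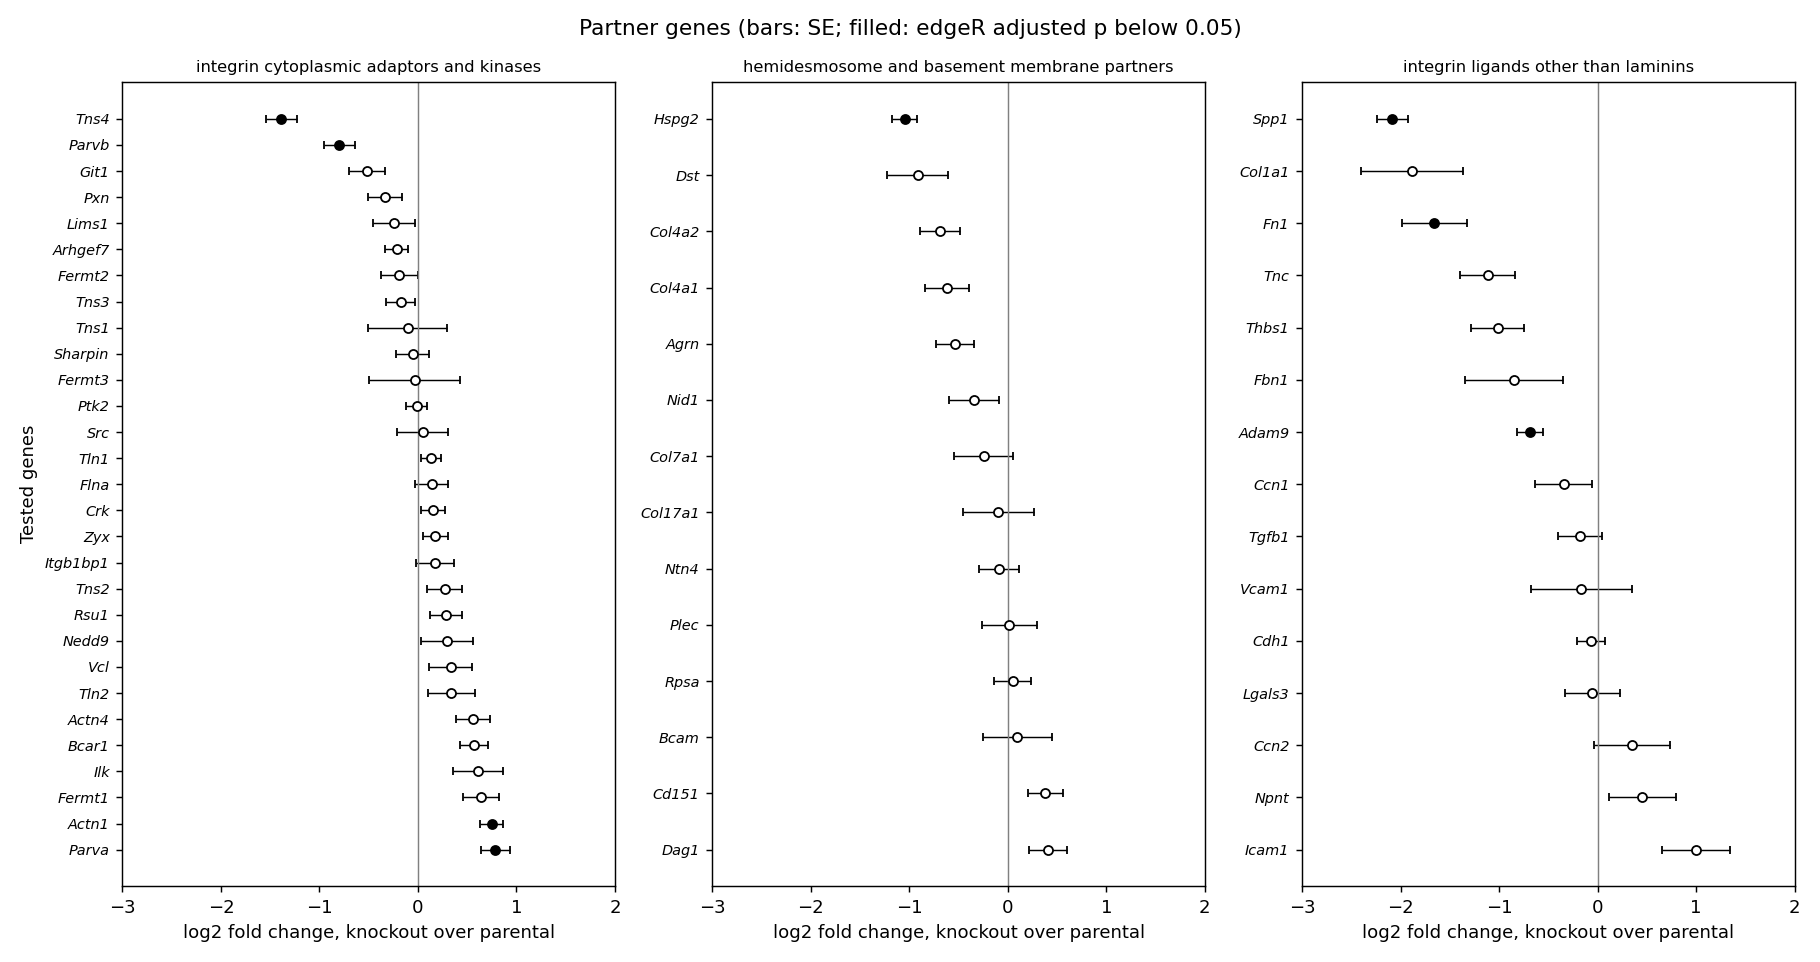
Log2 fold change (p62 knockout over parental, x axis, bars: SE) of the tested genes of 3 partner lists, with filled symbols for an edgeR adjusted p below 0.05. Spp1 lies at -2.09 and Tns4 at -1.39, and 8 of the 58 tested genes are filled.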

How the data were processed

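Poly(A) RNA of MOC2 cultures was sequenced as directional paired-end libraries, per the labels' protocols. Per the file headers, the deposited counts give total and unique exon reads for each gene, as raw whole numbers. The authors' TPM could be recomputed from total reads and exon lengths, with a largest difference of 6e-11. Per the submitters' processing notes the genome was GRCm39. Aligner, counter and strand handling: not given in the sources used here, so reads of overlapping or antisense genes cannot be told apart.

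Total counts were tested with edgeR 4.0.16 (R 4.3.3): its filterByExpr filter, TMM scaling, a model with genotype alone, the quasi-likelihood test, and Benjamini-Hochberg adjustment over 12775 genes, with calls made where that p was below 0.05. The SE comes from the F statistic. The test was checked on simulated data in which no library was set apart from its group. That check does not cover a library like knockout replicate 2. The alternatives were DESeq2 1.42.0, limma-voom (limma 3.58.1), a replicate block, unique counts, RLE or upper quartile scaling, no filter or a stricter one (5 CPM in 3 libraries), and each library left out in turn. Text names each called member, each member with a mean of at least 5 CPM, other members by group, and up to 2 called genes in each direction per partner list. Adam9, Lamc3, Itga1, Itga8, Itga9, Itga10, Itgb3 and Itgb8 were named outside this rule, after their values were seen. The ratios of paired chains were also chosen with the data known. Values of 1 member are not reported here. A search for motifs in the chains' proteins was planned but not run. The members and lists were chosen with earlier results of these data known.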

Additional observations from a re-analysis of the deposited data

How the results depend on the processing

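Deviations of same-numbered libraries from their group means correlated at -0.37, -0.10 and 0.28, and knockout replicate 1 correlated best with parental replicate 3. With 3 libraries per group and knockout replicate 2 standing apart, these values cannot decide if the numbering pairs the libraries. With the replicate block, 54 genes were higher and 203 lower over all genes, and 1 member was lower (Lamc1), 0 adaptors were higher and 1 lower, and 1 ligand was lower. DESeq2 called 1479 genes higher and 1402 lower, 1 member higher and 8 lower, 5 adaptors higher, 3 basement membrane partners lower, and 1 ligand higher and 6 lower. Leaving out each library gave 0 to 2972 genes higher and 0 to 3001 lower, 0 to 2 members higher and 0 to 13 lower, 0 to 8 adaptors higher and 0 to 6 lower, 0 to 2 basement membrane partners higher and 0 to 5 lower, and 0 to 3 ligands higher and 0 to 6 lower. The upper end came without knockout replicate 2. Without parental replicate 2 edgeR called 0 genes, with 2494 at an unadjusted p below 0.05, of which 6 were members, all lower. Without knockout replicate 1, and likewise without knockout replicate 3, it called 0 members. At an unadjusted p below 0.05, 7 members were lower in each of these fits, and 0 and 2 were higher. Among all genes, 2587 and 2577 were below it in either direction. Such fits have fewer residual degrees of freedom than the 4 of the full fit. The log2 fold change of Sqstm1 was -2.70 with RLE scaling (edgeR adjusted p = 0.0502) and -2.72 with the stricter filter (edgeR adjusted p = 0.0547), and -3.93 to -2.32 without single libraries. Without single libraries the log2 fold change of Lamb2 ran between -0.66 and 0.076, positive without knockout replicate 1 or without knockout replicate 3, and that of Itgb7 between -0.59 and 0.87, negative without knockout replicate 2. From unique counts the integrin beta sum was 938 TPM in knockout and 1059 TPM in parental cells, against 891 and 1008 TPM. Of 377 single-gene comparisons across 27 named members and partners, 304 kept direction and call, 56 lost a call, 14 gained one and 3 turned sign. Only the 5 called members and the named partners, all of them called, could lose a call. Each of these members lost it in 4 to 6 of 13 or 14 alternatives, and each named partner in 1 to 6 of 14. The other members counted as kept where they stayed uncalled with the same sign. The causes of these changes were not tested.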
